A study of Mus musculus with 15 samples.

Results

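Rgcc, Atp13a4, Smpx and Pcdh17 are 4 of the 22012 genes tested in the colon mucosa of mice with and without chemical colitis. They were chosen by measured values of these same arrays, namely their large falls in colitic mice given vehicle compared with mice given water. The 4 genes are covered by 11 of the 56504 probes kept, found by the gene name that the array files give. Because the falls chose the genes, the comparison of DSS vehicle with water mice is given for them as a description, without a test. Both comparisons of filgotinib mice share 5 of their mice with that choice. The DSS vehicle mice were chosen as low and the water mice as high. This favours higher values of filgotinib mice against DSS vehicle and lower values against water.

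The study asked what filgotinib, an inhibitor that prefers the kinase JAK1, does in a colitis model made with dextran sodium sulfate (DSS), a sulfated sugar polymer that damages the lining of the colon when mice drink it. All mice were female Balb/cJ mice, 8 weeks old when the experiment began, with no transgene or deletion named, and the mucosa was scraped from the last 30 mm of the descending colon. There were 5 mice in the water group, 5 in the group given DSS and the vehicle of the drug (DSS vehicle), and 5 given DSS and filgotinib (filgotinib mice), a daily gavage of 30 mg/kg. DSS was given at 4% for 3 cycles of 4 days with washouts of 3 days on plain water. The labels list a vehicle control as the compound of the water mice, whereas the design text names drinking water alone for them. Each mouse gave 1 RNA sample and 1 array, so n = 5 per group for every mean below.

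Rgcc encodes a regulator of the cell cycle that binds the mitotic kinase CDK1 and is also known as a target of complement and TGF-beta signals. Atp13a4 encodes a P5-type ATPase, a family of membrane pumps whose best studied members move polyamines out of endosomes and lysosomes. Smpx encodes a small muscle protein of the cytoskeleton, known from heart and skeletal muscle. Pcdh17 encodes a non-clustered protocadherin, an adhesion protein of cell contacts that is best described in the nervous system. The 4 genes thus form no pathway and share only the pattern that chose them.

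The probes that carry the results are shown here because each value below is the hybridisation signal of 1 such oligonucleotide. Positions are those of the array files, in the mouse build mm9, and no annotation of that build was used to place them in exons or untranslated regions. The leading probe of Rgcc lies on the minus strand at chr14:79688717-79688776, that of Atp13a4 on the minus strand at chr16:29396174-29396233, that of Smpx on the plus strand at chrX:154190156-154190215, and that of Pcdh17 on the plus strand at chr14:84933861-84933920. A second Atp13a4 probe, A_55_P2492759 at chr16:29421806-29421865 on the minus strand, is shown whole, since it lay in the same gene but gave no signal above background. For the leading probes the first 30 bases are given.
Rgcc A_51_P226269: ggcagttcggagagtgaagctcactttgtt
Atp13a4 A_55_P2038217: ccaaagggttggcagatatcagaaggaaaa
Atp13a4 A_55_P2492759: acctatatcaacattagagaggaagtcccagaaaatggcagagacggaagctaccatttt
Smpx A_55_P2931762: tcctgaacattttatacatttgtatgatga
Pcdh17 A_52_P111031: tccaagctacaccaaacattaacccatatt

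Smpx has a further pair of bright probes, which share 22 bases, shown in capitals. The first covers chrX:154158932-154158991 without a break. The second runs from chrX:154158970 to chrX:154189544, a genomic span of 30575 bases for a 60-base probe, so it reads across a splice junction. The first is given whole and the second by its first 50 bases.
Smpx A_55_P2609194: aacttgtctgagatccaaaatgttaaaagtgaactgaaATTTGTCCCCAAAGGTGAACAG
Smpx A_55_P2609189: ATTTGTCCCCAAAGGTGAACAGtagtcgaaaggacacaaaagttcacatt

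All values below are log2 signals relative to the 75th percentile of their array, so a difference of 1 is a 2-fold change. A probe counts as detected on an array when the scanner software marks it well above background. Between 50.2% and 62.1% of probes were so marked on an array. By group the share was 57.97% to 62.1% in water, 52.97% to 58.59% in DSS vehicle and 50.2% to 58.34% in filgotinib mice. The 75th percentile signal was 684 or more in every water mouse and 667 or less in every mouse given DSS. Detection was thus lower in most mice given DSS, and its part in the detection of single probes was not tested. Each array correlated with the mean of the other 4 of its group at r between 0.986 and 0.997 across genes. Groups were compared with limma over all 22012 genes, with a call made where the adjusted p was below 0.05. Of all genes, 10.8% were called higher and 8.41% lower in the comparison of DSS vehicle with water mice, 6.79% higher and 4.53% lower in filgotinib than in DSS vehicle mice, and 6.42% higher and 3.41% lower in filgotinib than in water mice. The share of calls that were higher was 60.0% in filgotinib against DSS vehicle mice and 73.6% with arrays scaled to their median. In filgotinib against water mice it was 65.3%, against 48.8% with median scaling, 48.9% with quantile normalization, 82.9% with normexp background correction and 48.1% in the deposited table. In DSS vehicle against water mice it was 56.1%, against 37.9% with median scaling and 67.0% with normexp. Precision is limited by the 5 arrays per group. The mucosa holds many cell types, and fewer cells of a type cannot be told apart from less RNA per cell.

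The fall of the 4 genes in DSS vehicle mice was large and left no overlap with water mice in any of them. Among 1001 genes with an established symbol that were called lower without overlap, ranked by the size of the fall, Rgcc stood at place 3, Atp13a4 at 4, Smpx at 10 and Pcdh17 at 12. The gene just above Rgcc was the stem cell receptor Lgr5 at a difference of -5.38, and Rgcc itself stood at -4.94 and Atp13a4 at -4.65. Below Atp13a4 came Gm5886 at -4.24. Smpx, at -3.54, lay between the alarmin gene Il33 at -3.64 and Bex1 at -3.50, and Pcdh17, at -3.26, lay between Bex1 and the transporter gene Slc16a12 at -3.12. The order takes background readings as they are: Atp13a4 and Lgr5 were not detected in DSS vehicle mice and have only bounds there, at least 6.94-fold and at least 10.4-fold, which do not place them above the measured falls of Smpx or Rgcc. These values are the choice itself and are not evidence for it. All 4 members were thus lower by that choice, beside the 8.41% of all genes called lower.

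Rgcc stayed low under filgotinib. In water mice 1 to 5 its values were 2.88, 3.12, 3.01, 3.22 and 3.04. In DSS vehicle mice they were -3.44, -3.19, -0.40, -1.88 and -0.56, and in filgotinib mice -2.19, -1.78, -0.61, -2.74 and -3.09. The water mice lay within a narrow band, whereas both DSS groups were spread over several log2 units and covered much the same range. All 10 mice given DSS were below every water mouse. The single Rgcc probe was detected on all 15 arrays, so each of these values is a measured one.

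The mean of Rgcc was 3.05 ± 0.13 (SD) in water, -1.89 ± 1.42 in DSS vehicle and -2.09 ± 0.97 in filgotinib mice, a 30.8-fold lower mean in DSS vehicle than in water mice. Filgotinib and DSS vehicle mice differed by -0.19 ± 0.58 (SE), with a 95% interval from -1.44 to 1.05 and a limma adjusted p of 0.865. A change in either direction within that interval was not detectable with these mice. Against water, filgotinib mice were lower by 35.2-fold, a difference of -5.14 ± 0.58 (SE) with a limma adjusted p of 0.000966. With the slide as a fixed term this comparison kept its direction, at -6.25, but its adjusted p was 0.520, and no slide held both filgotinib and water mice.

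**Figure D1:**
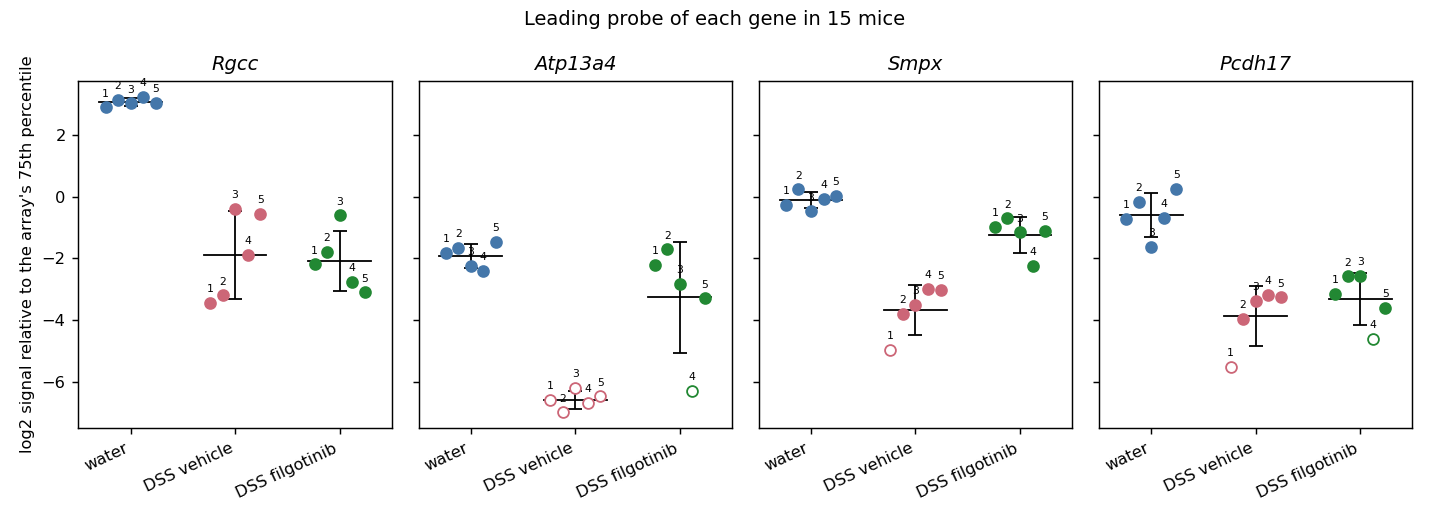
Log2 signal of the leading probe relative to the 75th percentile of the array (vertical axis) for each gene in the 3 groups of 5 mice, with mouse numbers beside the points, open points where the probe was not well above background, and lines for mean ± SD. In Rgcc and Pcdh17 the filgotinib mice overlap the DSS vehicle mice and lie below all water mice, while all 5 filgotinib mice for Smpx and 4 of 5 for Atp13a4 lie above every DSS vehicle mouse.

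Atp13a4 was not detected in any DSS vehicle mouse and was detected in 4 of 5 filgotinib mice. Its leading probe read -1.82, -1.67, -2.24, -2.41 and -1.46 in water mice 1 to 5. In DSS vehicle mice it read -6.56, -6.97, -6.19, -6.67 and -6.45, all of them background readings. Filgotinib mice 1, 2, 3 and 5 read -2.21, -1.71, -2.81 and -3.29, and filgotinib mouse 4 read -6.28, which was again background. Filgotinib mice 1 and 2 lay within the range of the water mice, and mouse 4 within the range of the DSS vehicle mice.

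As the DSS vehicle group gives only an upper bound, Atp13a4 was at least 6.94-fold lower there than in water mice. Filgotinib mice rose to at least 2.74-fold above DSS vehicle mice, where the background reading of filgotinib mouse 4 is taken as it is. The fitted difference, background readings included, was 3.31 ± 0.63 (SE), with a limma adjusted p of 0.00590. It was 1.06 with normexp, with the call kept, and 4.06 without filgotinib mouse 4, with an adjusted p of 4.1e-05. Against water, filgotinib mice differed by -1.34 ± 0.63 (SE), with a 95% interval from -2.68 to 0.00045 and a limma adjusted p of 0.174. Without mouse 4 the difference from water was -0.59, with an adjusted p of 0.225. The gene entered the test through the 9 arrays of water and filgotinib mice that detected it.

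The Atp13a4 result rests on 1 of 4 probes. The probe A_55_P2492759 read between -7.07 and -5.82 in the 15 mice, and A_55_P2072458 between -7.55 and -6.09, without detection in any of them. A_55_P2715192 was detected in DSS vehicle mouse 5 alone, at -2.62, and read between -7.29 and -6.04 in the other 14 mice. These 3 probes therefore show neither the fall nor the rise that the leading probe showed.

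Smpx rose under filgotinib, with all 5 filgotinib mice above every DSS vehicle mouse and below every water mouse. Water mice 1 to 5 read -0.26, 0.23, -0.48, -0.07 and 0.03 on the leading probe. DSS vehicle mice read -4.96, -3.80, -3.51, -2.99 and -3.00, of which only mouse 1 was not detected. Filgotinib mice read -0.99, -0.71, -1.16, -2.23 and -1.11. The 3 groups did not overlap at all, with filgotinib mice between the other 2 groups and mouse 4 the lowest of them.

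The mean of Smpx was -0.11 ± 0.27 (SD) in water, -3.65 ± 0.81 in DSS vehicle and -1.24 ± 0.58 in filgotinib mice. DSS vehicle mice were 11.6-fold below water mice. Filgotinib mice were 5.32-fold above DSS vehicle mice, a difference of 2.41 ± 0.35 (SE) with a 95% interval from 1.66 to 3.16 and a limma adjusted p of 0.00156. With normexp that difference was 1.47, with the call kept. They were 2.18-fold below water mice, a difference of -1.13 ± 0.35 (SE) with a 95% interval from -1.87 to -0.38 and a limma adjusted p of 0.0556, which misses the threshold. This last call is not stable: 8 of 28 other settings passed the threshold, and the adjusted p ranged from 0.0103 to 0.807 over them.

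Further Smpx probes bear on the same gene, and the pair that shares 22 bases, printed above, gave the same order of groups. On the junction probe A_55_P2609189 the group means were -0.31 in water, -3.95 in DSS vehicle and -1.40 in filgotinib mice. Its fit gave a difference of 2.55 ± 0.38 (SE) between filgotinib and DSS vehicle mice, with a limma adjusted p of 0.00187. On A_55_P2609194 the means were -1.05, -4.48 and -2.07 in the same order, a rise of 2.41 from DSS vehicle to filgotinib mice. The last probe, A_55_P1956798, was detected in 4 water mice and in no mouse given DSS, so it gives no difference between the DSS groups. The pair with shared bases is not independent, and all probes of a gene read the same RNA samples.

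**Figure D2:**
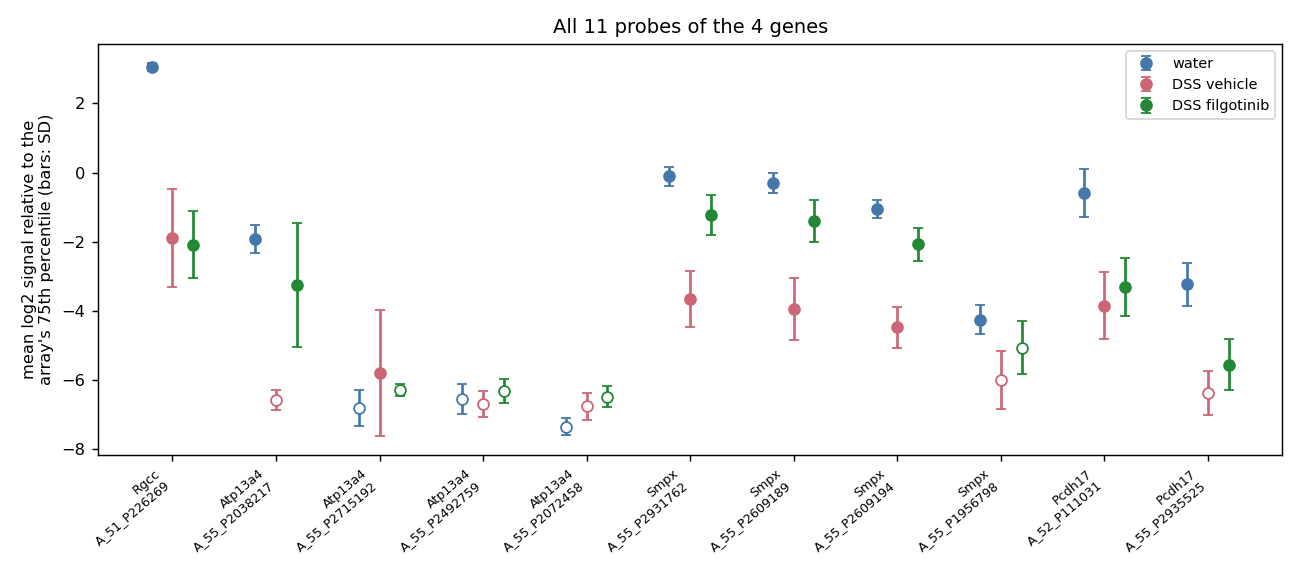
Mean log2 signal relative to the 75th percentile of the array (vertical axis, bars SD over 5 mice) of all 11 probes in the 3 groups, with open points where no array of the group was well above background. The 3 bright Smpx probes share the order water, filgotinib, DSS vehicle, whereas 3 of the 4 Atp13a4 probes stay near background.

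Pcdh17 overlapped between the DSS groups and stayed below water. Its leading probe read -0.73, -0.18, -1.62, -0.68 and 0.23 in water mice 1 to 5. DSS vehicle mice read -5.50, -3.96, -3.38, -3.17 and -3.26, with mouse 1 not detected. Filgotinib mice read -3.15, -2.58, -2.57, -4.60 and -3.60, with mouse 4 not detected. Filgotinib mice 1, 2 and 3 lay above every DSS vehicle mouse, mice 4 and 5 did not, and all 5 lay below every water mouse.

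The mean of Pcdh17 was -0.60 ± 0.70 (SD) in water, -3.85 ± 0.97 in DSS vehicle and -3.30 ± 0.84 in filgotinib mice, and DSS vehicle mice were 9.57-fold below water mice. The difference between filgotinib and DSS vehicle mice was 0.55 ± 0.49 (SE), with a 95% interval from -0.50 to 1.61 and a limma adjusted p of 0.497. It was 0.14 without DSS vehicle mouse 1 and 0.88 without filgotinib mouse 4, with adjusted p of 0.873 and 0.238. Filgotinib mice were 6.52-fold below water mice, a difference of -2.71 ± 0.49 (SE) with a limma adjusted p of 0.0102. That difference was -1.73 with normexp, with the call kept. With the slide as a fixed term it was -2.16, with an adjusted p of 0.634, and no slide held both filgotinib and water mice.

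A second Pcdh17 probe, A_55_P2935525 at chr14:84878897-84878956 on the plus strand, was detected in all 5 water mice, in no DSS vehicle mouse and in filgotinib mouse 3 alone. Its means were -3.23 in water, -6.37 in DSS vehicle and -5.55 in filgotinib mice. The DSS means rest almost wholly on background readings, and the probe passed the filter through the water mice, so it gives no measured difference between the DSS groups and is no support for the leading probe.

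Of the 4 genes, then, 2 were called higher and 0 lower in filgotinib than in DSS vehicle mice, beside 6.79% and 4.53% of all genes. Against water, 2 were called lower and 0 higher in filgotinib mice, beside 3.41% and 6.42% of all genes. The choice by low DSS vehicle and high water values favours these directions in both comparisons. The shares of all genes are therefore no even measure for the 4 genes, and nothing is read from the counts. The genes called in the first comparison, Atp13a4 and Smpx, were not those called in the second, Rgcc and Pcdh17. Whether the response to filgotinib differs from gene to gene was not tested.

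**Figure D3:**
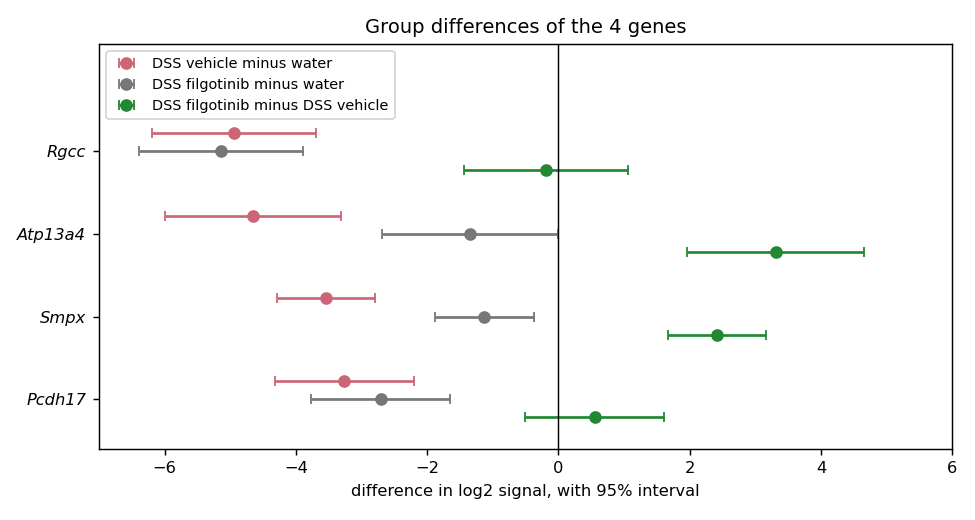
Fitted differences in log2 signal with 95% intervals (horizontal axis) for the 4 genes in 3 comparisons of groups of 5 mice. The intervals of filgotinib minus DSS vehicle lie above 0 for Atp13a4 and Smpx and include 0 for Rgcc and Pcdh17, and the DSS vehicle minus water values are the ones that chose the genes.

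To set the mice on 1 scale, each filgotinib value was placed between the mean of the DSS vehicle mice, taken as 0%, and the mean of the water mice, taken as 100%. Smpx stood at 75.2%, 83.2%, 70.4%, 40.2% and 71.8% in filgotinib mice 1 to 5. Atp13a4 stood at 93.7%, 105%, 80.7%, 6.12% and 70.5%, where its 0% is a background reading. Pcdh17 stood at 21.7%, 39.1%, 39.3%, -22.8% and 7.70%, and Rgcc at -6.08%, 2.23%, 25.9%, -17.2% and -24.3%. Mouse 4 was the lowest of the 5 for Atp13a4, Smpx and Pcdh17 and the second lowest for Rgcc. For Rgcc mouse 5 was the lowest. Mouse 5 came next above mouse 4 for Atp13a4 and Pcdh17, but for Smpx it lay above mouse 3. Mice 4 and 5 shared a slide that held no other array. Their arrays had 52.1% and 50.2% of probes detected, and no other array had so low a share. Low values of these mice therefore cannot be told apart from an effect of slide or array, which was not tested. The scale uses the means that chose the genes, so it orders the mice and supports no test.

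**Figure D4:**
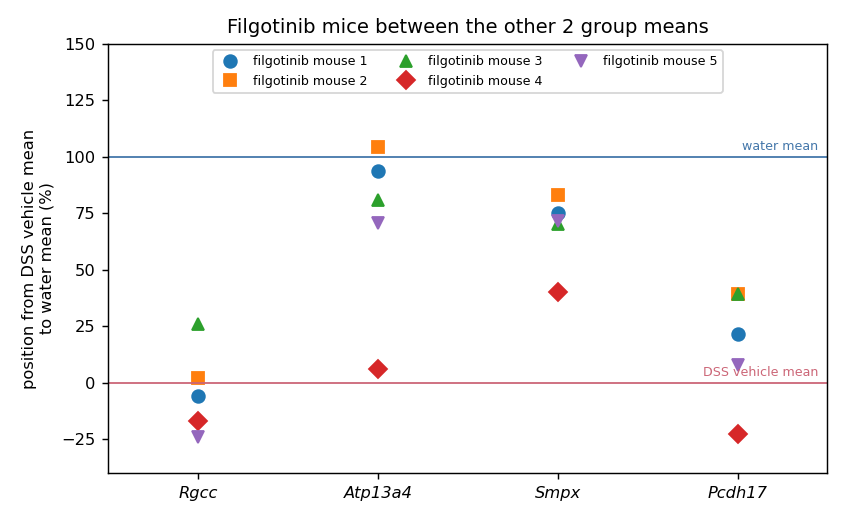
Position of each of the 5 filgotinib mice (markers) between the DSS vehicle mean (0%) and the water mean (100%) for each gene on the vertical axis. Mouse 4 stands apart from the other 4 mice for Atp13a4, at 6.12%, and is the lowest for Smpx, at 40.2%, and for Pcdh17, at -22.8%.

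Arrays lay on 6 slides, and 1 slide held both DSS groups, with 2 filgotinib and 3 DSS vehicle mice. On that slide filgotinib minus DSS vehicle was 2.80 for Smpx, 1.11 for Pcdh17 and -0.03 for Rgcc. The difference of Smpx was thus no smaller within the slide than in the whole series. Atp13a4 was detected in both filgotinib mice of the slide and in none of its DSS vehicle mice, so the 4.60 between them includes background readings and is no measured difference. With slide as a fixed term the difference between the DSS groups came from that same slide alone, so this fit is no separate check. Its filgotinib mice were 1 and 2, the highest of the 5 for Smpx and Atp13a4. The limma adjusted p of that fit was 0.0463 for Smpx and 0.0259 for Atp13a4, background readings included. Another slide held 1 DSS vehicle and 2 water mice, and DSS vehicle minus water there was -6.22 for Rgcc, -3.57 for Smpx and -3.27 for Pcdh17, while Atp13a4 was detected in the water mice alone.

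Across the 15 arrays the 4 genes followed each other in pairs. The Pearson correlation was 0.931 for Atp13a4 with Smpx and 0.921 for Rgcc with Pcdh17, and the lowest of the 6 was 0.639 for Rgcc with Atp13a4. With each group's mean taken off, so that only differences among mice of a group remained, it was highest for Smpx with Pcdh17 at 0.904 and lowest for Rgcc with Atp13a4 at 0.327. All of these are descriptions over arrays that share their groups, their scaling and the choice of genes. Every correlation with Atp13a4, here and below, includes its background readings.

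The genes most like Rgcc over the 15 arrays were Ascl2, a transcription factor of crypt stem cells, at r = 0.970, Npy1r at 0.961, Lgr5 at 0.940, Naf1 at 0.933 and A930003A15Rik at 0.933. Lgr5 and A930003A15Rik were not detected in any mouse given DSS, so their r takes in background readings from both DSS groups. Ascl2 means were 2.27 in water, -3.28 in DSS vehicle and -3.37 in filgotinib mice, an order that follows from its choice by likeness to Rgcc. The DSS groups differed by -0.09 with a limma adjusted p of 0.949. Npy1r encodes a receptor for neuropeptide Y, and its means were 0.20, -2.28 and -2.69 in the same order. With group means taken off, the most like genes were Syngr1, Dusp7 and Ier5l, at 0.908, 0.902 and 0.875. None of these 3 was called in any of the comparisons.

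The genes most like Pcdh17 included 2 of the same names. They were Cldn2, a pore-forming claudin, at r = 0.951, Npy2r at 0.947, Naf1 at 0.946, A930003A15Rik at 0.931 and Mcc at 0.927. Npy2r and A930003A15Rik were not detected in any mouse given DSS, so their r takes in background readings from both DSS groups. Cldn2 had means of 2.23 in water, 0.08 in DSS vehicle and 0.67 in filgotinib mice, and filgotinib mice stayed below water by -1.55 with a limma adjusted p of 0.0170. With group means taken off they were Ttr, the gene of transthyretin, at 0.931, Tdrd12 at 0.907 and Mirt1 at 0.888.

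The genes most like Smpx and Atp13a4 shared Nxpe2 and Vsig2. For Smpx they were Nxpe2 at r = 0.981, Cdo1, a cysteine dioxygenase, at 0.981, Klf12 at 0.980, Otc, the urea cycle enzyme, at 0.975 and Vsig2 at 0.974. For Atp13a4 they were Vsig2 at 0.966, Usp54 at 0.960, Dpyd, which breaks down pyrimidines, at 0.960, Nxpe2 at 0.957 and Bex3 at 0.954. Nxpe2 had means of 1.64 in water, -0.71 in DSS vehicle and 0.99 in filgotinib mice. All of these 8 genes were called higher in filgotinib than in DSS vehicle mice, beside 6.79% of all genes. Nothing is read from that count, since the genes were chosen by likeness to Smpx or Atp13a4 over the same arrays. The rise of Otc was 2.05 with a limma adjusted p of 0.00112, and that of Dpyd was 2.06 with an adjusted p of 0.00482. With group means taken off, Smpx was most like Tmprss13 at 0.964, Mirt1 at 0.939 and Hid1 at 0.928, and Atp13a4 most like Tmem132c at 0.948, Ddit4l at 0.919 and Ggt7 at 0.919.

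Rgcc was next set beside genes of its known partners and of entry into mitosis, the step that CDK1 drives. Of 19 such genes other than Rgcc, all measured, 15 fell and 1 rose in DSS vehicle against water mice, with a median of -1.21 beside 0.05 for all genes. In filgotinib against DSS vehicle mice 13 rose and 1 fell, with a median of 1.05 beside 0.00 for all genes. Against water none was called (2 lower with normexp) and the median was -0.14. Cdk1 itself fell by 1.73 in DSS vehicle mice and rose by 1.34 ± 0.27 (SE) under filgotinib, with a limma adjusted p of 0.00818. The kinase gene Aurkb rose by 1.05, and the spindle checkpoint genes Bub1b and Bub1 rose by 1.41 and 1.28. Cdkn1b, an inhibitor of cyclin-dependent kinases, moved the other way, at -0.51 with an adjusted p of 0.00501. Rgcc, at -0.19 between the DSS groups, did not pass the test in the comparison in which Cdk1 did.

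Rgcc is also linked to TGF-beta signals, so ligands, receptors and SMAD genes were counted. Of 16 measured genes 3 rose (1 with median scaling) and 0 fell (1 with normexp) in DSS vehicle against water mice. In either comparison of filgotinib mice 0 were called. Against DSS vehicle, 1 was lower with quantile normalization or in the deposited table, and against water 1 was higher with normexp. Smad3 and Smad4, which carry the signal to the nucleus, rose by 0.31 and 0.34.

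Among crypt stem cell genes, 18 of 19 were measured, and 9 fell and 1 rose in DSS vehicle against water mice. In filgotinib against water mice 9 were lower and 0 higher, and between the DSS groups 0 were called. The medians were -0.51, -0.54 and -0.09, beside 0.05, 0.05 and 0.00 for all genes. Lgr5 was not detected in any mouse given DSS and was at least 10.4-fold lower in DSS vehicle and at least 8.56-fold lower in filgotinib mice than in water mice. Ascl2 was 46.8-fold and 49.9-fold lower in the same groups. Smoc2 differed from water by -3.82 in DSS vehicle and by -2.50 in filgotinib mice, and Axin2, a feedback target of Wnt signals, by -1.86 and -1.82. Rgcc and Pcdh17 were likewise called lower in filgotinib than in water mice and not called between the DSS groups, and the part of stem cell content in their values was not tested.

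**Figure D5:**
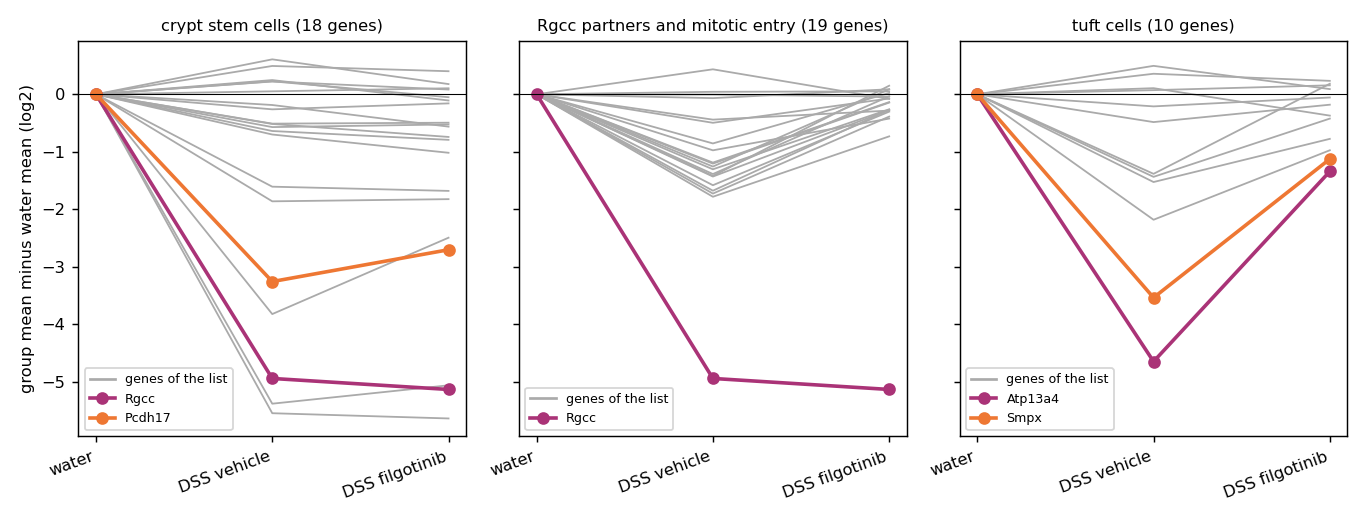
Group means of each gene of 3 lists (grey lines) minus that gene's water mean, on a log2 scale, with Rgcc, Pcdh17, Atp13a4 or Smpx drawn in colour. Of the mitotic genes 13 of 19 were called higher in filgotinib than in DSS vehicle mice while Rgcc was not, and 0 of 18 crypt stem cell genes were called between these groups.

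None of the other P5-type ATPase genes measured was called lower in DSS vehicle mice, where Atp13a4 was not detected. Atp13a1, Atp13a2 and Atp13a3 were detected in all 15 mice and differed between DSS vehicle and water mice by 0.08, 0.06 and 0.12, none called. Between the DSS groups they differed by 0.08, 0.21 and -0.06, none called. Atp13a3, which has the same kind of product and lies on the same chromosome with other tested genes between it and Atp13a4, is among these. Atp13a5 did not pass the filter on dim probes.

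The family was counted together with genes of polyamine synthesis and breakdown, of which 17 of 19 were measured. In DSS vehicle against water mice 3 fell and 0 rose, and in filgotinib against DSS vehicle mice 2 rose and 0 fell, with a median of 0.14. Azin1, an inhibitor of the antizyme that limits polyamine synthesis, fell by 0.85 in DSS vehicle mice and rose by 0.97 ± 0.24 (SE) under filgotinib, with a limma adjusted p of 0.0230. Srm, spermidine synthase, fell by 0.85, and Paox, a polyamine oxidase, fell by 0.29. Sat2 rose by 0.54 under filgotinib.

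As Smpx is known from muscle, genes of striated muscle were counted beside it. Of 25 other genes of the sarcomere and striated muscle 16 were measured, and 1 rose and 2 fell in DSS vehicle against water mice (6 and 1 with normexp), with a median of 0.24. Between the DSS groups 1 rose and 1 fell, with a median of 0.03 (-0.005 in the deposited table). Acta1, skeletal muscle actin, went against Smpx, with a rise of 3.12 in DSS vehicle mice and a difference of -1.65 ± 0.48 (SE) from DSS vehicle to filgotinib mice at a limma adjusted p of 0.0423. Ldb3, a Z-disc gene, fell by 1.14 and Mylpf, a myosin light chain gene, by 0.29 in DSS vehicle mice, and Mylpf rose by 0.42 under filgotinib. Ckm, Csrp3, Neb and Myh1 were among the 9 that did not pass the filter.

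Smooth muscle can come along with scraped mucosa, so its genes were counted beside Smpx. Of 18 measured smooth muscle genes 1 rose and 0 fell in DSS vehicle against water mice, with a median of 0.65. Of all genes 10.8% were called higher and 8.41% lower there. In filgotinib against DSS vehicle mice 0 of the 18 were called (1 lower in the deposited table). The SE of these genes ran from 0.09 for Tpm1 to 1.22 for Cnn1, so calls were hard to reach for some. The part of smooth muscle in the values of Smpx was not tested. Their summed level lay between 5.54 and 5.94 in water, 5.91 and 7.46 in DSS vehicle and 5.67 and 6.55 in filgotinib mice. Acta2, Actg2 and Myh11 differed between the DSS groups by -0.16, -0.20 and -0.26, none called.

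Of the non-clustered protocadherins, the family of Pcdh17, 7 of 11 others were measured and 0 were called in any of the comparisons. Other settings did call some of them. Between the DSS groups 1 was higher with median scaling and 1 lower with quantile normalization or in the deposited table. In filgotinib against water mice 2 were higher with normexp and 1 lower with quantile normalization or in the deposited table. In DSS vehicle against water mice 1 was higher with normexp. Pcdh1 and Pcdh18 were detected in all 15 mice. Pcdh1 differed by 0.04 between DSS vehicle and water mice and by -0.19 between the DSS groups, and Pcdh18 by -0.53 and 0.64. Pcdh9 lies on the same chromosome with other tested genes between it and Pcdh17. It was detected in 4 water mice, 0 DSS vehicle mice and 1 filgotinib mouse, with a fitted difference of -0.42 between DSS vehicle and water. Pcdh7, Pcdh11x, Pcdh12 and Pcdh15 differed from water by 1.09, 0.08, 0.30 and 0.45 in DSS vehicle mice, none of which passed the test, and Pcdh8, Pcdh10, Pcdh19 and Pcdh20 did not pass the filter.

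Rgcc is also known from endothelium and Pcdh17 from nerve cells, so markers of these were set beside them. Of 17 measured endothelial genes 0 were called in any of the comparisons, though with normexp 2 were higher in filgotinib than in water mice. The medians were 0.46 in DSS vehicle against water and -0.22 between the DSS groups (0.005 with normexp). Pecam1, Cdh5 and Kdr differed between DSS vehicle and water mice by -0.05, 0.44 and 0.51. The summed level of the list lay between 1.98 and 2.79 in water, 1.86 and 4.15 in DSS vehicle and 1.79 and 3.96 in filgotinib mice, so the groups overlapped. Of 10 measured genes of enteric neurons and glia 3 rose and 0 fell in DSS vehicle against water mice, and 3 fell and 0 rose between the DSS groups, where Pcdh17 was not called.

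Markers of the colon epithelium, the labelled tissue, had a summed level between 10.9 and 11.1 in water, 11.2 and 11.3 in DSS vehicle and 11.1 and 11.3 in filgotinib mice. Of 13 such genes 0 fell and 5 rose in DSS vehicle against water mice (1 with median scaling, 0 with quantile normalization or in the deposited table), and 0 were called between the DSS groups. Some tuft cell genes were, like Smpx and Atp13a4, lowest in DSS vehicle mice. Of 10 measured tuft cell genes 4 fell in DSS vehicle against water and 4 rose in filgotinib against DSS vehicle mice, with none the other way. They were Trpm5, a taste channel gene, Gfi1b, Dclk1 and Alox5. Gfi1b was at least 2.09-fold and Trpm5 at least 1.45-fold higher in filgotinib than in DSS vehicle mice, in which neither was detected. Gfi1b was detected in 4 and Trpm5 in 3 filgotinib mice, and the background readings of the others are taken as they are. Dclk1 rose by 0.75 and Alox5 by 1.01. The summed level of the tuft list overlapped between groups, from 1.48 to 1.95 in water, 1.44 to 1.95 in DSS vehicle and 1.31 to 1.91 in filgotinib mice, and its part in the values of Atp13a4 and Smpx was not tested.

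Most enteroendocrine genes rose in DSS vehicle mice, where the 4 genes were low. Of 16, 14 rose and 1 fell in DSS vehicle against water mice, and 13 fell and 1 rose in filgotinib against DSS vehicle mice. Cck, which encodes a gut hormone, rose by 3.43 and then fell by 2.23. Of the remaining lists, goblet cells had 8 rises (3 with median scaling, 4 with quantile normalization) and 0 falls in DSS vehicle against water mice and 0 rises and 2 falls between the DSS groups (3 falls with quantile normalization, 4 in the deposited table). Absorptive colonocytes had 4 rises (1 with median scaling, 2 with quantile normalization or in the deposited table) and 1 fall, then 2 rises (1 in the deposited table) and 0 falls. Mast cells had 4 rises of 8 measured genes and then 4 falls. Myeloid cells had 4 rises of 14 (6 with normexp) and then 1 fall (3 with quantile normalization or in the deposited table, 2 with normexp), and T, B and NK cells 2 rises of 11 (5 with normexp) and then 0 calls. Fibroblasts had 0 calls of 16 in both (1 rise in DSS vehicle against water mice with normexp). They had the largest medians in size of the lists counted, 1.44 in DSS vehicle against water mice and -1.19 between the DSS groups. Their summed level lay between 3.28 and 5.77 in water, 4.64 and 7.10 in DSS vehicle and 2.42 and 6.78 in filgotinib mice, and its part in the values of the 4 genes was not tested.

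Chromosomal neighbours of the 4 genes fell with DSS about as often as all genes did. The 5 tested genes on each side of every member were taken in the order of the RefSeq gene table of GRCm38.p6, with no limit on distance. In DSS vehicle against water mice 1 of 10 neighbours of Rgcc, 0 of 10 of Atp13a4, 2 of 10 of Smpx and 1 of 10 of Pcdh17 were lower, beside 8.41% of all genes. The largest of these falls was the -1.39 of Dach1, counted with Pcdh17, and Prdx4, counted with Smpx, stood at -1.17. In filgotinib against DSS vehicle mice 2, 0, 2 and 2 of 10 were higher in the same order, beside 6.79% of all genes. Prdx4, an endoplasmic reticulum peroxiredoxin gene, rose by 1.14 there with a limma adjusted p of 0.0128. Rgcc and Pcdh17 lie on the same chromosome, 14, and Wbp4 counts as a neighbour of both.

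Since the genes fell together, the promoter windows of all 4 were searched for short motifs. RefSeq windows of GRCm38.p6, 250 bases before to 50 after a start site, were matched for all 4 genes, with 2 windows for Atp13a4. On both strands, the STAT motif TTCNNNGAA, the TCF/LEF motif ATCAAAG, the E-box CACGTG and the TATA motif TATAAA were found in none of the 5 windows, beside 8.30%, 3.73%, 7.15% and 13.6% of all 32851 windows. The AP-1 motif TGANTCA was found in 1 Atp13a4 window and in 7.81% of all windows. That stretch, chr16:29544945-29545064 on the minus strand in GRCm38.p6, is shown with the motif in capitals, which overlaps no other of the motifs searched.
Atp13a4 upstream stretch: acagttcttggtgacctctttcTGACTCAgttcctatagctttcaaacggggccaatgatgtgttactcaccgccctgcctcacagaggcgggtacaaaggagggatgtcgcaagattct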

How the data were processed

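The scanner files give, per the file headers, the intensity of each spot after background subtraction and detrending (Agilent Feature Extraction 11.5.1.1), and they were not scaled between arrays. The deposited table of the series holds log2 values for 32349 probes, with column medians from 8.84 to 8.86 and correlations with their own arrays from 0.999 to 1.000 across probes. For its normalization between arrays and its probe filter, the method is not given in the sources used here; limma is named by the submitters' processing notes. Flags and annotation text in the deposited scanner files are other columns without a scale, used only to drop spots and to name probes.

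The values used were log2 of the processed signal minus the 75th percentile of each array. Control spots and 101 probes with an outlier mark were left out. Probes marked well above background on 5 or more of the 15 arrays were kept, and the brightest of them stood for its gene, of which 22012 were tested. Of the 11 probes of the 4 genes, 7 passed. Where a group had no detected array, a bound replaces the fold: the bright group's mean against the dim group's mean of the larger of its own value and the lowest detected value on that array. Undetected readings in the bright group enter its mean as they are, so the bound is strict only where all its arrays were detected. A single limma 3.58.1 fit in R 4.3.3 (lmFit, eBayes, two-sided) covered all 15 arrays with group as the factor and Benjamini-Hochberg adjustment. The p-values set group differences against the spread between these mice and take the mice as independent. Labels do not say whether mice shared cages, so an effect of cage cannot be told apart from that of group. The code was tested on simulated data with 200 changed genes.

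The 4 genes and the 18 gene lists were chosen with earlier results of these data known. Members were left out of their lists, and a list is described by its counts and median, without a set test. The values of 1 listed gene are not reported here. Its summed level is log2 of the sum of linear values. Named genes are the 4 genes, up to 4 called genes with the largest change per list, defining markers, family genes, the 5 most like genes per member (3 with group means taken off) and the genes next in the order of falls. Cdkn1b, neighbour genes and genes that did not pass the filter were named after their values were seen. Alternatives covered scaling, background, filters, probe choice, slide, the replicate number, the samples in the fit, eBayes settings and each mouse left out. Further tools were pandas 2.3.3, numpy 2.4.6 and matplotlib 3.10.9 under Python 3.11.15.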

Additional observations from a re-analysis of the deposited data

Results flagged for a closer look

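A_55_P2715192, an Atp13a4 probe outside the comparisons, read -2.62 in DSS vehicle mouse 5, set apart from the other 4 mice of its group by 0.807 of the group's whole range, above Dixon's critical value for 5 samples. On the Smpx probe A_55_P2609189 filgotinib mouse 4 read -2.43, with a gap of 0.716 of the range below the other filgotinib mice. On the leading Smpx probe the same mouse had a gap of 0.703, and on the leading Atp13a4 probe of 0.654, both under the critical value. Chance sets apart about 1 in 20 groups by this measure, and 33 groups were looked at.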

How the results depend on the processing

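The rise of Smpx and Atp13a4 from DSS vehicle to filgotinib mice kept its direction and its call under all 28 and 26 other settings run, with adjusted p up to 0.0463 and 0.0322. Leaving out each mouse gave 2.09 to 2.66 for Smpx and 2.92 to 4.06 for Atp13a4. Normexp gave the lowest values, 1.47 for Smpx and 1.06 for Atp13a4, and the setting that asks for detection on 10 arrays gave it no value. Pcdh17 was not called in any of 28 settings (0.14 to 0.88 with each mouse left out) and Rgcc in none of 27. Rgcc changed sign, at 0.18 without DSS vehicle mouse 3, 0.14 without DSS vehicle mouse 5 and 0.06 without filgotinib mouse 5, with -0.58 as the lowest value.

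Against water, filgotinib mice gave -5.50 to -4.88 for Rgcc, -1.73 to -0.59 for Atp13a4, -1.26 to -0.88 for Smpx and -2.96 to -2.38 for Pcdh17 with each mouse left out. Slide as a fixed block ended the calls of Rgcc (-6.25) and Pcdh17 (-2.16). No slide held both filgotinib and water mice. These 2 values join the slide with both DSS groups to the slide with 1 DSS vehicle and 2 water mice. Smpx became called with normexp (-0.89), in the deposited table (-1.07), and, at -1.13, with no filter, detection on 10 arrays, 2 groups only, and eBayes trend and robust. It was also called without DSS vehicle mouse 1 (-1.13) or filgotinib mouse 2 (-1.26). The fall in DSS vehicle mice moved beyond 1 SD with slide as a fixed block for Rgcc (-6.22) and Atp13a4 (-5.12), with normexp for Atp13a4 (-1.53), Smpx (-2.36) and Pcdh17 (-2.05), and in the deposited table for Atp13a4 (-3.32). With slide as a fixed block the fall came only from the slide that held both groups, with 1 DSS vehicle and 2 water mice. It thus rests on 1 DSS vehicle mouse. The cause of the other shifts was not tested.

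Calls among all genes, 2492 in filgotinib against DSS vehicle mice, came to 1229 with no filter, 437 with slide as a fixed block and 1276 with 2 groups only, and to 1315 to 3060 with each mouse left out, moving by over 1.5 times without DSS vehicle mouse 1 (1315) or 5 (1573) or filgotinib mouse 2 (1504) or 5 (1399). In filgotinib against water mice 2164 calls became 521 with median scaling, 1197 with quantile normalization, 4324 with normexp, 1247 in the deposited table, 9053 with no filter, 1416 with the mean of probes, 2 with slide as a fixed block, 1398 with slide as a random block and 1078 with 2 groups only. Leaving out each mouse gave 745 to 2887, with moves over 1.5 times without water mouse 2 (972), 4 (870) or 5 (788) or filgotinib mouse 4 (1198) or 5 (745). In DSS vehicle against water mice 4220 calls became 2522 with median scaling and 84 with slide as a fixed block.

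Slide as a fixed block left 3 of the 13 mitotic genes called higher under filgotinib and 2 of the 15 called lower in DSS vehicle mice, 2 and 3 of the 9 crypt stem cell genes called lower in filgotinib and DSS vehicle mice, and 2 of the 4 tuft cell genes in each comparison. Detection on 10 arrays also left 2 tuft cell genes in each, since fewer genes were tested. The replicate numbers did not pair the mice: same-numbered mice correlated at -0.516 to 0.532, and 5 of 15 pairs passed 0.1. A replicate block gave 1608 calls between the DSS groups and 788 in filgotinib against water mice and changed no call of the 4 genes, with Smpx at 2.41 and an adjusted p of 0.00859. Signal over background limits Atp13a4 in DSS vehicle mice to a bound.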
